A study of Mus musculus with 13 samples.

Results

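Ribosomal protein genes encode the proteins of the cytosolic ribosome. They were taken here as the protein-coding genes on chromosomes 1 to 19 whose symbol begins with Rpl or Rps and a digit, together with Rplp0, Rplp1, Rplp2 and Rpsa, without the Rps6k kinase genes. This rule gave 88 genes of the 20807 autosomal protein-coding genes of GENCODE M21, the mouse annotation on GRCm38. Of the 88, 43 encode proteins of the large subunit and 30 proteins of the small subunit. The other 15 are paralogs such as Rpl3l and Rpl22l1, pseudogene-like loci that are annotated as coding such as Rpl10-ps3, and Rps19bp1, whose product is not a ribosomal protein. Another 4 coding genes with such symbols lie on sex chromosomes and were left out by the rule.

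The study mapped insertions of a Sleeping Beauty transposon, a cut-and-paste element that enters at TA dinucleotides, in F123, a line of embryonic stem cells from hybrid mice. The transposon carries a T7 promoter, purified genomic DNA was transcribed from it with T7 RNA polymerase, and the RNA was sequenced into the flanking genome. Members were looked up in 2 libraries, both of wild type genotype, both from cells grown without serum in 2i/LIF and both from the same sequencing batch. The plasmid pool is the positive control in which transposons jumped from transfected plasmids present in many copies. The remobilized pool holds cells of the TRACK-IT parental line after Sleeping Beauty was expressed to move its transposons again. Each pool is 1 library with no replicate, so a test below compares these libraries and not the conditions, and all intervals cover counting error only. The plasmid pool gave 63031 placed reads and 29460 autosomal sites, and the remobilized pool 2116 placed reads and 727 autosomal sites. The control without transposons had 1 read in all and 0 placed reads, and so 0 sites. The 9 clonal lines, of the rad21-dTag genotype and from another batch, had 0 of 56 autosomal sites near a member. Taken as independent draws, these sites would allow a share of up to 5.36%. However, 25 of the 56 came from 1 line, so this value is not a limit on the share among insertions in general.

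Ribosomal protein genes are among the most strongly transcribed genes of growing cells, embryonic stem cells included. They are short, many carry small nucleolar RNAs in their introns, and each is copied many times in the genome as processed pseudogenes. Loss of 1 copy of a ribosomal protein gene can impair growth, in mice and in human Diamond-Blackfan anaemia. In this annotation their median length was 3.24 kb, against 17.6 kb over all autosomal protein-coding genes. They had a median of 19 other protein-coding gene starts within 500 kb, against 16 for all such genes, and this local gene number ran from 0 at Rpl10l to 64 at Rpl13a.

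The bases at insertion sites in and beside members are shown to let the TA be seen. They were read from GENCODE M21 transcripts on the strand of the transcript, 30 bases each, and are reference sequence and not reads. Capitals mark the base that was deposited with the base preceding it, where a TA is found at most sites. The last 2 were chosen after their values were seen. The lines are for the sites inside Rpl6 (chr5:121207276-121207305, plus strand), Rpl35a (chr16:33057895-33057924, plus strand) and Rps24 (chr14:24495993-24496022, plus strand), for the site closest to the start of a member, beside Rpl30 (chr15:34444324-34444353, plus strand), and for the exonic site with the most reads, in Lactb beside Rps27l (chr9:66970887-66970916, minus strand).
Rpl6: actattactaatgcTAcatgataaatggta
Rpl35a: gttattgtacaattTAtttgctcccacatc
Rps24: gatggagagaacatAAataactacatgggc
Rpl30: tgccaccaaatttaTAtaagcatgaaaaag
Lactb: actaatttcgcattTAagtggaattcgtca

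Transcripts covered 16 of the sites near members, and 15 of these had TA at the marked bases (93.8%, 95% exact Clopper-Pearson interval 69.8 to 99.8). Over all autosomal plasmid pool sites covered in this way the number was 1013 of 1411 (71.8%). The exception was Rps24, where the TA lay 1 base to the left of the marked pair. Within 2 bp, a TA was found at all 16, and at 93.1% of all such plasmid pool sites.

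Over all members together, the interval of the insertion density included the density around other genes of like surroundings. The plasmid pool had 71 sites inside or within 25 kb of a member, 0.241% (0.188 to 0.304) of its autosomal sites. These windows, merged where they overlap, cover 4.65 Mb, or 0.193% of the autosomal span. They held 15.3 sites per Mb (95% exact Poisson interval 11.9 to 19.3), against 12.3 over the whole autosomal span. Windows of the other protein-coding genes, weighted so that the local gene numbers follow those of the members, held 13.8 per Mb, which is inside the interval of the members. For those other genes no longer than 20 kb it was 15.6 per Mb, also inside that interval. The remobilized pool had 3 sites near members, 0.645 per Mb (0.133 to 1.89), against 0.622 per Mb for the weighted other genes and 0.776 for those up to 20 kb.

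At least 1 plasmid pool site lay inside or within 25 kb of 50 of the 88 members (56.8%, 45.8 to 67.3), while the background over all autosomal protein-coding genes was 61.8%. The weighted other genes gave 60.9%, and those of them no longer than 20 kb gave 49.9%, so the sign of the difference depends on how long the compared genes are. In equal windows of 25 kb on each side of the start, chosen after the data were seen because members are short, 47 members had a site (53.4%, 42.5 to 64.1). There the background was 47.2% over all genes, and the weighted other genes gave 46.9%. In these equal windows the density was 15.4 per Mb (11.9 to 19.6) against 14.6. By number of sites in these windows, 41 members had 0, 31 had 1, 12 had 2, 3 had 3 and 1 had 4 or more. Members with 2 sites made up 13.6%, against 11.0% of the weighted other genes, and those with 3 made up 3.41% against 2.77%.

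**Figure D1:**
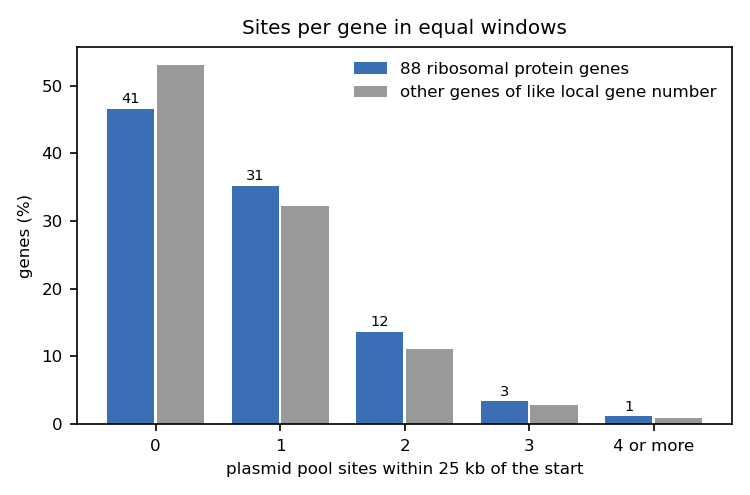
Percent of genes (vertical axis) with 0, 1, 2, 3 and 4 or more plasmid pool sites within 25 kb of the gene's start (horizontal axis), for the 88 ribosomal protein genes (blue, number of genes above each bar) and for other protein-coding genes weighted to the same local gene numbers (grey). The members had 46.6% of genes without a site and the others 53.1%.

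The interiors of members were rarely hit, and they are short. A plasmid pool site lay inside 4 members, or 4.55% (1.25 to 11.2), where 30.2% of all autosomal protein-coding genes had one. Per length the numbers were 10.9 sites per Mb of member (2.96 to 27.8) and 13.5 per Mb of all genes, and the latter lies inside the interval of the members. The remobilized pool had a site inside 0 of 88 members, against 1.37% of all genes. Of the 4 members hit, 3 encode large subunit proteins. Rpl6 (chromosome 5, 121204481 to 121209241) had a site at 121207291 with 2 reads, in an intron that a retained-intron transcript covers. Rpl35a (chromosome 16, 33056453 to 33060189) had one at 33057910 with 1 read, likewise in a retained intron. Rpl24 (chromosome 16, 55966275 to 55971435) had one in an intron at 55970288 with 1 read. The small subunit gene Rps24 (chromosome 14, 24487125 to 24496959) had one at 24496008 with 1 read, in an untranslated part of an exon of 1 of its coding transcripts. Sites with 1 read rest on little evidence, and 3 of these 4 have 1 read.

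Promoters were hit too rarely for a statement. From 250 bases before to 50 bases after the start, 0 of 88 members had a site in either pool, and over all autosomal protein-coding genes 0.202% had one in the plasmid pool and 0% in the remobilized pool. Within 1 kb of the start, 2 members had a plasmid pool site (2.27%, 0.276 to 7.97), against 1.73% of all genes. They were Rpl30, with a site of 2 reads 0.699 kb before its start, and Rps12-ps3, with a site of 2 reads 0.842 kb before its start in an intron of Pdzd8. In the remobilized pool 0 members had a site within 1 kb of the start, and 0.111% of all genes did.

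Large subunit genes had a plasmid pool site inside or within 25 kb in 23 of 43 cases (53.5%, against 61.8% of all autosomal protein-coding genes), with 33 sites or 14.1 per Mb (9.71 to 19.8, against 13.3 for all such genes). Rpl37a (chromosome 1, 72711290 to 72713813) had the most, 4 sites of 1, 2, 2 and 1 reads. Those 24.9 and 22.5 kb before its start lay in introns of Ankar, and those 9.35 and 20.6 kb after its end lay between genes. Rpl35a had, beside the site inside it, one of 4 reads 5.36 kb before its start in an intron of Iqcg and one of 2 reads 7.60 kb after its end in an intron of Lmln. Rpl41, which encodes a very small ribosomal protein, had the best-supported site of all members, with 9 reads, 12.1 kb before its start in an intron of Pa2g4. A second site of Rpl41 with 4 reads lay 1.56 kb after its end in an intron of Zc3h10. Rpl15 had 2 sites between genes, 8.61 and 8.63 kb after its end, with 5 reads and 1 read on the same strand. Their positions, 18259210 and 18259197, are just beyond the 10 bp merging distance, so they may not be independent. Rpl28 had 2 sites in introns of Ube2s, 7.59 and 12.4 kb after its end. The second site of Rpl6 lay 18.5 kb before its start in an intron of Ptpn11. Of the stalk protein genes, Rplp2 had sites 20.2 kb (3 reads, an exon of Cend1) and 22.8 kb (1 read) before its start, Rplp1 had 1 site 15.1 kb after its end, and Rplp0 had none. Among large subunit genes with 1 site, outside the gene, the site lay closest at Rpl30, then at Rpl23a, 1.87 kb before its start with 2 reads between genes, and at Rpl38, 2.81 kb before its start with 2 reads between genes. Rpl31 had one 4.72 kb after its end in an intron of Tbc1d8, and Rpl7a and Rpl37 had one between genes, 6.30 and 7.07 kb before the start. Rpl26 had one 8.30 kb before its start in an untranslated exon of Rnf222, Rpl17 one 9.07 kb after its end, and Rpl14 one 10.3 kb before its start in an intron of Entpd3. Rpl27 had one 11.2 kb before its start in an intron of Rundc1, Rpl9 one 19.8 kb before its start, and Rpl23 one 20.1 kb after its end in a coding exon of the splicing factor gene Cwc25. None of these had more than 2 reads.

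Small subunit genes had a site in 19 of 30 cases (63.3%, against 61.8% of all autosomal protein-coding genes), with 27 sites or 16.4 per Mb (10.8 to 23.9), and their interval overlaps that of the large subunit genes. Rps26 (chromosome 10, 128624534 to 128626747) had 3 sites, with 3 reads 2.50 kb before its start, 1 read 4.47 kb after its end and 2 reads 24.8 kb before its start. Rps23 had 6 reads at a site 2.43 kb after its end and 3 reads at another 21.9 kb after its end in Atg10. Rps20 had 5 reads at a site 5.17 kb before its start and 1 read at another 13.2 kb after its end. Rps14, on chromosome 18, had a site of 7 reads 24.7 kb after its end. Rpsa, also known as the laminin receptor, had 1 site of 2 reads 8.88 kb after its end. Rps7 had a site 3.26 kb before its start between genes (1 read) and one 21.5 kb before its start in an intron of Rnaseh1 (4 reads). Rps16 had 1 site of 3 reads 3.95 kb before its start, and Rps3a1 1 site of 4 reads 5.13 kb after its end, both between genes. Rps27a, which encodes a fusion of ubiquitin with a ribosomal protein, had 1 site of 2 reads 1.94 kb before its start in an intron of Clhc1. Rps6, whose product is the S6 kinase substrate, had 1 site 19.6 kb after its end in an intron of Dennd4c, and Rps27 had 1 site 19.5 kb after its end in a coding exon of Nup210l. The 2 members hit on chromosome 17 were Rps18, with a site 6.83 kb before its start in an intron of Vps52, and Rps10, with a site 22.9 kb after its end in an intron of Nudt3. Members that lie next to each other share windows. Rps29 and Rpl36al are 23.5 kb apart, and the site of Rps29 is the one listed for Rpl36al in Lrr1.

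The 15 other members had 13 sites at 8 genes (53.3%, 26.6 to 78.7, against 61.8% of all autosomal protein-coding genes), or 16.5 per Mb (8.79 to 28.2). Rps27rt, a short locus on chromosome 9, had 3 sites, all before its start, all in introns of Osbpl10 and all on the strand opposite to it. Rps27l had 2 sites in Lactb, 21.4 kb (7 reads, a coding exon) and 22.4 kb (2 reads) after its end. Rpl22l1 had 1 site of 6 reads 18.1 kb before its start in an intron of Eif5a2, a translation factor gene. Rpl36al had 1 site in a coding exon of Lrr1 and 1 in an exon of Pole2. Rps19bp1, Rpl39l and Rpl36a-ps1 had 1 site each, of 1 read, 9.26 kb after the end, 5.23 kb after the end and 5.25 kb before the start. The sites with 6 and 7 reads at Rpl22l1 and Rps27l thus lay in neighbouring genes and not in the members.

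**Figure D2:**
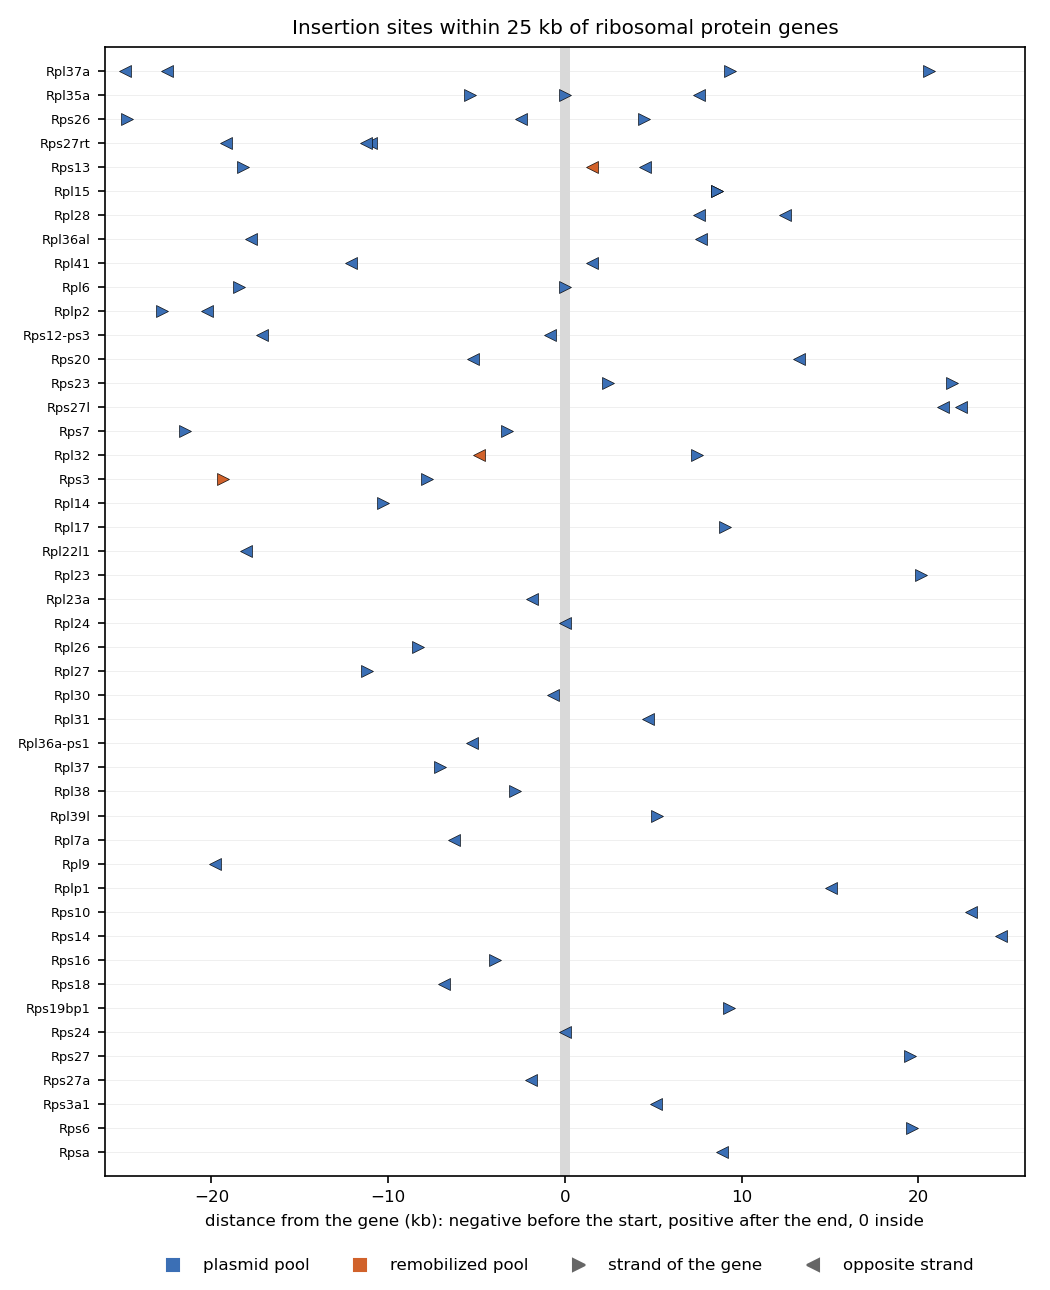
Insertion sites within 25 kb of ribosomal protein genes, by distance from the gene in kb (horizontal axis; 0 is inside the gene) for genes nearest to a site (46 rows; some genes are not drawn). Blue marks 67 plasmid pool sites and orange the 3 remobilized pool sites; triangles point right where the deposited strand is that of the gene and left where it is opposite, and the sites spread over both sides and both strands.

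No preference for a side or a strand of the members was detected. Of 67 plasmid pool sites outside a member, 35 lay before the start and 32 after the end (52.2% before, 39.7 to 64.6, exact binomial test, two-sided, adjusted p 1, Benjamini-Hochberg over 4 tests). On the strand of the nearest member there were 33 of 71 (46.5%, 34.5 to 58.7, exact binomial adjusted p 1). The labels do not state which way the transposon lies relative to the deposited strand. By distance, the density before the start was 20.5 gene and site pairs per Mb at 0 to 5 kb (9.35 to 38.8), 18.2 at 5 to 10 kb and 14.4 at 10 to 25 kb. After the end it was 11.4 at 0 to 5 kb (3.69 to 26.5), 27.3 at 5 to 10 kb (14.1 to 47.6) and 12.1 at 10 to 25 kb. Over all autosomal protein-coding genes these 6 values lay between 13.6 and 15.0, and each lies within the interval of the members.

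Most sites near members lay in other protein-coding genes or between genes. Of the 71 plasmid pool sites, 30 lay in introns and 8 in exons of other protein-coding genes, 26 between genes, 3 in non-coding genes alone and 4 inside members. A protein-coding gene was therefore the place of 59.2% of the sites near members, against 45.5% of all autosomal plasmid pool sites. The windows were chosen around genes, so a higher share is built into the choice. The median was 2 reads per site near members and over all autosomal sites, and sites with 1 read made up 38.03% (26.8 to 50.3) near members and 46.0% overall.

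Sites were denser around members with few neighbouring genes than around members with many. Where the local gene number was 0 to 16, 31 of 40 members had a plasmid pool site and the density was 21.5 pairs per Mb (15.7 to 28.7). Where it was 17 to 72, 19 of 48 had one and the density was 10.3 (6.77 to 14.9). The other protein-coding genes gave 14.3 and 13.0 per Mb in the same ranges, the former below the interval of the members and the latter inside it. Of these other genes 68.2% had a site in the lower range and 55.2% in the upper, but this share also depends on window length. In the class of 0 to 4 neighbours, 2159 other genes had 5579 pairs at 12.1 per Mb. In that of 43 to 72 neighbours, 2040 had 1692 pairs at 13.0 per Mb, so their windows were shorter. The shares of the other genes are therefore no counterpart to the members' difference in density. The split of the 10 classes of local gene number into a lower and an upper set was made after the values were seen, and no test was made on it. The lowest class was that of 26 to 32 neighbours, where 1 of 8 members had a site, and the classes of 33 to 42 and 43 to 72 had 12.6 and 17.2 pairs per Mb. The density therefore did not fall steadily with local gene number.

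**Figure D3:**
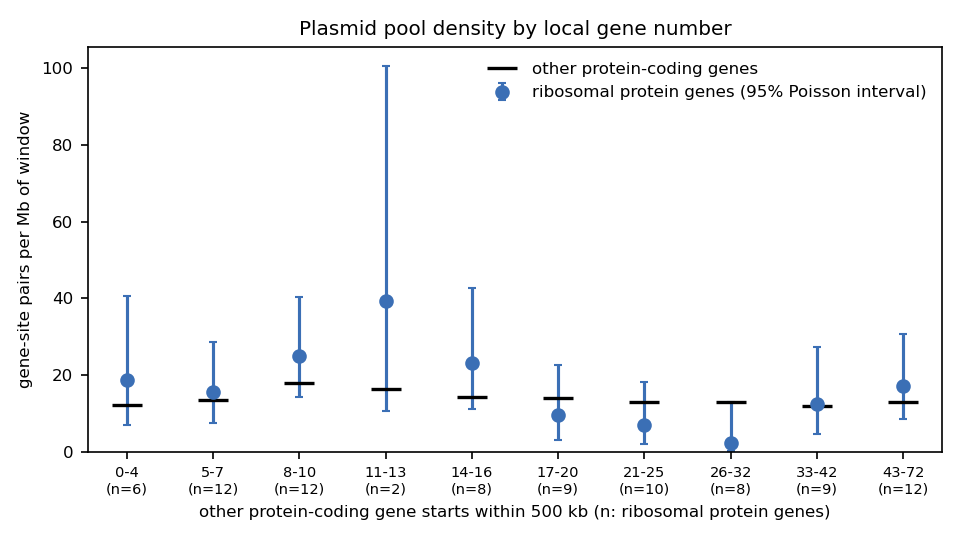
Plasmid pool density in gene and site pairs per Mb of window (vertical axis) against the number of other protein-coding gene starts within 500 kb (horizontal axis, 10 classes with the number of ribosomal protein genes in each). Points with 95% exact Poisson intervals are ribosomal protein genes and black bars other protein-coding genes; the point for 26 to 32 neighbours, at 2.32, is the lowest and the interval of that class ends just below the bar.

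No site of either pool lay inside or within 25 kb of 38 of the 88 members, so that 50 had a plasmid pool site, against 61.8% of all autosomal protein-coding genes. They were 20 large subunit genes (among them Rpl3, Rpl4, Rpl5, Rpl7, Rpl8, Rpl10a, Rpl11, Rpl12, Rpl13, Rpl18, Rpl19, Rpl21, Rpl22, Rpl27a, Rpl29, Rpl34, Rpl35, Rpl36 and Rplp0), 11 small subunit genes (among them Rps2, Rps9, Rps12, Rps15, Rps15a, Rps19, Rps21, Rps25 and Rps28) and 7 others (Rpl3l, Rpl7l1, Rpl10l, Rpl10-ps3, Rpl36-ps4, Rpl9-ps1 and Rpl9-ps6). Rpl5 and Rpl11 bind the p53 regulator Mdm2, and Rps19 is the gene most often mutated in Diamond-Blackfan anaemia. The nearest plasmid pool site was a median of 20.0 kb away from a member and at most 171.5 kb, at Rps21. The weighted other genes had a median of 14.6 kb, and those up to 20 kb long 25.02 kb. On chromosome 7, which has the most members, 8 of 14 had a plasmid pool site.

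In the remobilized pool, 3 members had a site within 25 kb (3.41%, 0.709 to 9.64), against a background of 4.35% of all autosomal protein-coding genes. In equal windows around the start it was again 3, against a background of 2.93%. Rpl32, a large subunit gene and the only member on chromosome 6, had a site of 2 reads at 115813585, 4.84 kb before its start in an intron of Efcab12. Rps13, a small subunit gene, had a site of 1 read on chromosome 7 at 116329986, 1.52 kb after its end and between genes. Rps3, a small subunit gene whose product also acts in DNA repair, had a site of 1 read on chromosome 7 at 99503102, 19.4 kb before its start and between genes. All 3 members also had a plasmid pool site, as did 56.8% of all members and 61.8% of all autosomal protein-coding genes. The nearest plasmid pool site lay 15.5 kb from the remobilized site at Rpl32, 3.03 kb at Rps13 and 11.5 kb at Rps3.

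The pools were then compared by the share of their autosomal sites near members. Within 25 kb, 0.413% (0.0852 to 1.20) of remobilized sites lay near a member, and 0.241% of plasmid pool sites did (odds ratio 1.72, two-sided Fisher's exact test, p 0.264, adjusted over 2 tests 0.350). Without chromosome 6, on which the remobilized pool has many of its sites, it was 0.414% of 483 sites and 0.253% of 27705 (Fisher's exact test, p 0.350). Counting only sites with at least 2 reads turned the direction, to a difference of -0.0386 percentage points (remobilized minus plasmid pool) and to -0.288 without chromosome 6. These rest on 1 of 420 and 0 of 264 remobilized sites, and a count of 0 cannot give a positive difference. Within 100 kb the shares differed, with 19 of 727 sites (2.61%, 1.58 to 4.05) against 240 of 29460 (0.815%, 0.715 to 0.924), an odds ratio of 3.27 (Fisher's exact test, p adjusted over 5 window widths 9.66e-05). Only the widest of the 5 windows gave a call, and at 50 kb, with 7 sites (0.963%) against 134 (0.455%), the adjusted p of Fisher's exact test was 0.145. At 50 kb, 8 members had a remobilized pool site (9.09%), against a background of 6.51%, and 66 of 88 had a plasmid pool site, against a background of 79.2%. At 100 kb, 15 members had a remobilized pool site (17.0%), against a background of 10.5%, and 79 had a plasmid pool site (89.8%), against a background of 93.4%.

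**Figure D4:**
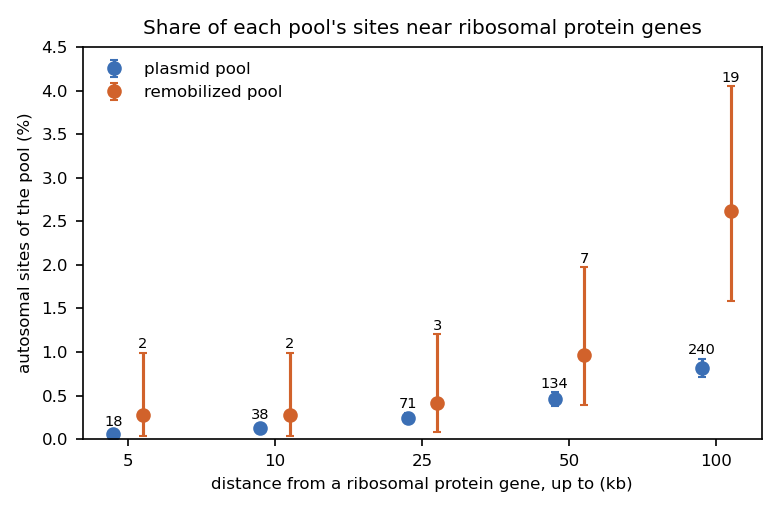
Percent of each pool's autosomal sites (vertical axis) inside or within 5, 10, 25, 50 and 100 kb of a ribosomal protein gene (horizontal axis), with 95% exact Clopper-Pearson intervals and the number of sites above each interval. The blue plasmid pool intervals and the orange remobilized ones overlap at 5, 10, 25 and 50 kb and are apart at 100 kb, where the shares are 0.815% and 2.61%.

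Of the 19 remobilized pool sites within 100 kb, 16 lay beyond 25 kb and 12 beyond 50 kb of the nearest member, with a median distance of 54.2 kb. Sites of 7 reads lay in Map2k1, 66.2 kb after the end of Rpl4, and in Tmem40, 56.9 kb after the end of Rpl32, and a site of 5 reads in Osbpl10, 54.2 kb before the start of Rps27rt. These sites were named after their values were seen. A pair beside Rpl36, 37 bp apart, may not be independent, and 8 of the 19 had 1 read.

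Whether the higher share at this width is particular to ribosomal protein genes was not tested, nor were the shares of related lists, which are given as values. Any protein-coding gene lay within 100 kb of 88.6% of remobilized sites and of 76.3% of plasmid pool sites. For the 78 mitochondrial ribosomal protein genes (Mrpl and Mrps), which serve the ribosome of mitochondria, the same 2 shares were 2.20% (16 sites, 1.26 to 3.55) and 0.828%. For 58 translation factor genes (Eif and Eef) they were 1.79% (13 sites, 0.955 to 3.04) and 0.628%. For 39 proteasome subunit genes they were 0.688% (5 sites, 0.224 to 1.598) and 0.401%, and for 32 genes of ribosome biogenesis, such as Fbl, Ncl and Npm1, 0.825% (6 sites, 0.303 to 1.79) and 0.333%. The intervals of these last 2 lists contain their plasmid pool shares.

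Within 25 kb, the related lists had plasmid pool densities whose intervals overlap that of the members. The mitochondrial ribosomal protein genes had 17.0 sites per Mb (13.6 to 21.04), with a site at 52 of 78 genes (66.7%), against 61.8% of all autosomal protein-coding genes. The translation factors had 13.3 (10.0 to 17.2), with a site at 32 of 58 (55.2%), and the proteasome subunits 15.0 (10.8 to 20.3), with a site at 26 of 39 (66.7%). The ribosome biogenesis genes were lowest, with 10.5 (6.65 to 15.7) and a site at 17 of 32 (53.1%). Over all autosomal protein-coding genes the density was 13.3, within the interval of every list but that of the mitochondrial ribosomal protein genes. Of the 84 plasmid pool sites of that list, 22 lay inside its genes.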

How the data were processed

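The deposited tables list single-base positions with a strand and a count. The counts are whole numbers that the authors deposited with no normalization stated. BWA, FastQC and deepTools and the build mm10 are named in the submitters' processing notes, with no role or version given. Filters, the handling of duplicates and of reads that fit several places, and the parental allele carrying a site are not given in the sources used here. Many members resemble processed pseudogenes, so sites in their exons are uncertain in placement.

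Positions within 10 bp were merged into 1 site at the position with the most reads, with no minimum number of reads, and lines without a position were left out. Coordinates are 1-based GRCm38 positions. Genes, with the start at the outermost annotated end, and transcript sequences are from GENCODE M21. Windows were genes with 25 kb on each side.

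Local gene number is the count of other protein-coding gene starts within 500 kb. All genes were put into 10 classes by it, and the values of non-member genes were averaged over classes with the members' numbers per class as weights. Densities of gene classes and distances count gene and site pairs, so a site near several genes counts for each.

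Pools were compared by two-sided Fisher's exact tests with sites as units, and side and strand by exact binomial tests, with Benjamini-Hochberg adjustment and a threshold of 0.05. Intervals are 95% exact, and for counts of 0 the upper limit is 3 counts. Python 3.11.15, scipy 1.17.1 and pandas 2.3.3 were used. The calculations were tested on simulated sites. Alternatives varied the merging, the minimum reads, the window, the members, the local gene number and chromosome 6; equal windows around starts, 100 kb with a minimum of 2 reads, the split by local gene number and the pseudogenes were added after the data were seen.

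Named members were those with a site inside, those with a remobilized pool site within 25 kb, the 10 with the most plasmid pool sites (14 members tie at 2 sites; ties went by sites inside the gene and then by symbol) and those without a site; named sites were the 5 best supported of the plasmid pool and all of the remobilized pool. Other names illustrate groups and were chosen after their values were seen. Members and lists were chosen with earlier results of these data known. The parental line was not analysed here. Some members are counted in all totals but not reported here by name.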

Additional observations from a re-analysis of the deposited data

How the results depend on the processing

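No paired analysis was possible because each group has 1 library. Across the alternatives, 100 recomputed values kept their direction and side of the threshold or stayed within the interval of the reported value. Another 6 moved, 11 changed direction and 4 newly passed the threshold. The interval of the remobilized pool's density ratio, on 3 sites, was 0.214 to 3.03, so few values could leave it. For the comparison with weighted other genes, the reported differences in genes with a site are -4.08 points (plasmid pool) and -0.913 (remobilized pool), and the density ratios 1.10 and 1.04. Against other genes up to 20 kb long the density ratios were 0.976 and 0.832. The plasmid pool difference moved to -17.3 points with windows of 5 kb, to 6.87 against genes up to 20 kb long and to 6.47 in equal windows around the start; gene length enters these by construction. The remobilized pool difference was 6.48 points with windows of 100 kb. With at least 5 reads per site the density ratio was 1.83 in the plasmid pool, on 7 sites near members, and 0 in the remobilized pool. The remobilized pool ratio was also 2.85, 1.58 and 1.86 with windows of 5, 10 and 100 kb, and 0.547 with at least 2 reads. These 4 values are inside its wide interval. The difference in share between pools, 0.172 points and 0.161 without chromosome 6, turned to -0.0386 and -0.288 with at least 2 reads. With at least 5 reads it was -0.398 and -0.426. These values rest on 1 of 420, 0 of 264, 0 of 113 and 0 of 66 remobilized sites, and a count of 0 cannot give a positive difference. The difference passed the threshold with windows of 100 kb, at 1.80 and 2.67 points, and also there with at least 2 reads, at 1.79 and 2.55. The cause was not tested. Sites before the start in the plasmid pool were 42.9% with at least 5 reads and 49.6% with windows of 100 kb. In the remobilized pool they were 66.7% as reported, of 3 sites, and 42.9% and 31.6% with windows of 50 and 100 kb, and sites on the gene's strand were 33.3% as reported and 57.1% and 63.2%. In the plasmid pool the latter were 52.5% with only the genes of the ribosome's own proteins. None of the side and strand tests passed the threshold under any alternative (lowest adjusted exact binomial p 0.440). With at least 5 reads the remobilized pool left no site near a member for side and strand. The 3 remobilized pool sites limit every statement on that pool at 25 kb.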

Other observations

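Pseudogenes of ribosomal proteins were looked at after the data were seen. On the autosomes, 259 annotated pseudogenes have a symbol that begins with Rpl or Rps and contains -ps. A plasmid pool site lay inside or within 25 kb of 127 of them (49.0%), at 14.8 pairs per Mb of window, and 1 site lay inside one, on 158.0 kb of pseudogene sequence in all. The remobilized pool had a site near 7 (2.70%) and 0 inside. Over all autosomal protein-coding genes, which are longer, 61.8% had a plasmid pool site and 4.35% a remobilized pool site inside or within 25 kb.

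Small nucleolar RNA genes, which guide the modification of ribosomal RNA, lie inside 28 of the 88 members, 57 in all. A plasmid pool site lay inside or within 25 kb of 17 of these 28 members and of 33 of the 60 members without such a gene, while 61.8% of all autosomal protein-coding genes had one.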
